A study of Mus musculus with 8 samples.

Results

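The miR-148 and miR-152 family of the mouse consists of miR-148a, miR-148b and miR-152, named mmu-miR-148a, mmu-miR-148b and mmu-miR-152 in the array files, and was taken from liver arrays as every spot assigned to 1 of these names. The members are 3 of the 577 miRNAs on the array, of which 567 are mouse miRNAs and 10 are viral, and they hold 60 of its 11540 miRNA spots. Each has 2 probes of 10 spots each.

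The livers came from 2 strains. The db/db mice, on 4 arrays, are homozygous for the db mutation of the leptin receptor and are diabetic. The db/+ mice, also on 4 arrays, carry a single copy of the mutation and served as controls. The labels give C57BL/KsJ as the background of the db/db strain and no age for the sampled animals. The series text states that body weight and plasma glucose were higher in the diabetic animals. The mutation is inherited, so every cell of a db/db animal carries it, liver cells included. Each array measured total RNA of liver. The sample titles speak of mice in the plural, and that of db/+ replicate 1 of livers, so pooled animals are not excluded. In such RNA, a change in the share of a cell type cannot be told apart from a change in RNA per cell.

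MicroRNAs (miRNAs) guide a silencing complex to messenger RNAs, mainly by pairing of the seed, bases 2 to 8 of the miRNA, with a complementary site. Members of a family share the seed and so share most predicted targets. miR-148a is known as an abundant miRNA of hepatocytes that represses the messenger RNAs of the low density lipoprotein receptor, which takes cholesterol up from blood, and of the cholesterol exporter ABCA1. All 3 members are known to repress DNMT1, the maintenance DNA methyltransferase.

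The mature sequences are shown because the members are told apart by few bases, which bears on how separately an array can measure them. They come from RefSeq (GRCm38.p6), are written 5′ to 3′, and carry the seed in capitals.
miR-148a: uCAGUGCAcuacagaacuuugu
miR-148b: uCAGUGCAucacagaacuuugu
miR-152: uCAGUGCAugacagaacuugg
The first 8 bases were identical in the 3 members. No other mouse miRNA of the table shared the seed CAGUGCA at bases 2 to 8, which 3 of 1738 mature sequences (0.173%) held. Bases 11 to 19, the stretch ACAGAACUU, were also common to the 3 members and were found in no other mature sequence of the table. Counted from 1 at the 5′ end, miR-148a and miR-148b differed by C9U and U10C and were identical at 20 of 22 bases (90.9%). Over the 21 bases that miR-152 has, miR-148a differed from it by C9U, U10G and U20G (85.7% identical). miR-148b differed from miR-152 by C10G and U20G (90.5% identical). A probe for 1 member may therefore also bind the others, and such shared signal was not tested.

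The 3 genes lie on different chromosomes. Mature miR-148a is at chr6:51269829-51269850 on the minus strand, miR-148b at chr15:103285185-103285206 on the plus strand and miR-152 at chr11:96850439-96850459 on the plus strand (GRCm38.p6). In the RefSeq gene records of the same assembly, Mir148b lies within Copz1 and Mir152 within Copz2, paralogous genes for the zeta subunits of the coatomer that coats transport vesicles. Mir148a lies within the record of the predicted gene Gm38821. Enclosing genes were looked up without regard to strand, and the table does not separate exons from introns.

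Level is given as the log2 of background-subtracted spot signal after each array was scaled to a common median, and n is 4 arrays per strain throughout. Before scaling, the brightness of the arrays varied by 1.26-fold within db/db and by 26.8-fold within db/+. The db/db arrays detected 133 to 166 mouse miRNAs and the db/+ arrays 91 to 255. Scaling factors were 0.847 to 1.06 in db/db, against 5.63 on the brightest array, db/+ replicate 1, and 0.21 on the dimmest, db/+ replicate 4. The arrays shared 1 slide, and since db/db filled its row 1 and db/+ its row 2, an effect of the row cannot be told apart from one of the strain. The hepatocyte miRNAs miR-122, miR-192 and miR-194 were detected on all 8 arrays. None of the 4 skeletal muscle and none of the 4 pancreas miRNAs looked up was detected on any array. Of the 4 neural miRNAs looked up, 1 was detected, miR-128, on 3 of 4 db/db and 2 of 4 db/+ arrays.

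The members' own signals carried this difference in brightness. miR-148a gave signals before scaling of 1239, 1645, 1595 and 1510 in db/db replicates 1 to 4, against 8683, 889.6, 2692 and 276 in db/+ replicates 1 to 4, and the lowest and highest db/+ values were 31.4-fold apart. miR-148b gave 27.2, 42.4, 41.0 and 45.5 in db/db and 151.99, 18.4, 51.6 and 6.38 in db/+. miR-152 gave 109, 153, 156 and 158 in db/db and 712, 86.0, 185 and 21.3 in db/+. For each member the db/db signals lay close together, and the db/+ signals fell on both sides of them in the order of the arrays' brightness. After scaling, the highest and lowest db/+ signals were 1.30-fold apart for miR-148a, 1.21-fold for miR-148b and 1.505-fold for miR-152.

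**Figure D1:**
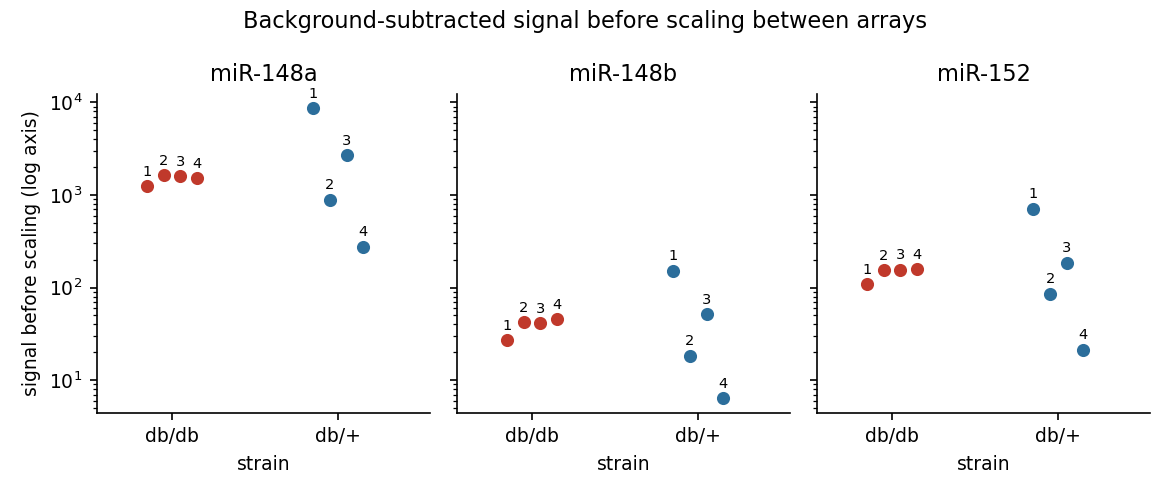
Background-subtracted spot signal of miR-148a, miR-148b and miR-152 before scaling, on a log axis, for each db/db and db/+ array. The signals of miR-148a run from 1239 to 1645 on the db/db arrays and from 276 to 8683 on the db/+ arrays.

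miR-148a, the member known for its abundance in hepatocytes, had nearly the same mean level in both strains. Its levels were 10.51, 10.59, 10.65 and 10.47 in db/db replicates 1 to 4, against 10.59, 10.62, 10.74 and 10.36 in db/+. The db/db values all lay inside the db/+ range. The means were 10.56 ± 0.078 in db/db and 10.58 ± 0.16 in db/+ (SD, n = 4 each), a log2 fold change, db/db minus db/+, of -0.020 ± 0.14 (SE, 95% interval -0.33 to 0.29, limma adjusted p = 0.949). That interval corresponds to a ratio of db/db over db/+ between 0.796 and 1.22. The miRNA did not pass the test, and a two-sided exact permutation test of the levels gave p = 0.914. It was detected on all 8 arrays, with 20 of 20 spots well above background on each.

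miR-148b, a dim signal on these arrays, stood higher on most db/db arrays without passing the test. Its levels were 5.01, 5.32, 5.37 and 5.42 in db/db replicates 1 to 4, against 4.75, 5.03, 5.03 and 4.92 in db/+. Above every db/+ array lay 3 of the 4 db/db arrays, while db/db replicate 1 lay within the db/+ range. The means were 5.28 ± 0.19 in db/db and 4.94 ± 0.13 in db/+ (SD, n = 4 each), and the log2 fold change was 0.34 ± 0.15 (SE, 95% interval 0.0098 to 0.68). This is a ratio of 1.27, and all 4 db/db arrays lay above the db/+ mean. The limma p was 0.0447 before adjustment and 0.182 after Benjamini-Hochberg adjustment over the 127 miRNAs tested, among which miR-148b ranked 31st by p. The two-sided exact permutation p was 0.0857, where 4 against 4 arrays allow no p below 0.0286. With arrays weighted by their quality the log2 fold change was 0.42 and passed (limma adjusted p = 0.0350), in a fit that called 42 of the 127 miRNAs (33.1%). Under normexp background correction it turned negative, at -0.38 (limma adjusted p = 0.346). That correction added an offset of 50 to every signal before scaling. The background-subtracted signals of miR-148b before scaling ran from 6.38 to 151.99, both in db/+. The part of the offset in the change of sign was not tested.

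Detection limits the value of miR-148b. Well above background were 10, 11, 10 and 10 of its 20 spots in db/db, against 13, 10, 11 and 0 in db/+, and on db/+ replicate 4 it was not detected. Its level of 4.92 on that array is thus a value near background that was multiplied in the scaling, and without this array the log2 fold change was also 0.34.

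miR-152 had a somewhat higher mean in db/db, by less than the test could separate from the spread between arrays. Its levels were 7.01, 7.17, 7.29 and 7.22 in db/db replicates 1 to 4, against 6.98, 7.25, 6.88 and 6.66 in db/+. All 4 db/db arrays lay above the db/+ mean, and only replicate 3 lay above every db/+ array, since db/+ replicate 2 was as high as the db/db group. The means were 7.17 ± 0.12 in db/db and 6.94 ± 0.24 in db/+ (SD, n = 4 each), a log2 fold change of 0.23 ± 0.16 (SE, 95% interval -0.13 to 0.59, limma adjusted p = 0.353). The exact permutation test gave p = 0.171. The miRNA was detected on all 8 arrays, but on db/+ replicate 4, its lowest value, only 7 of 20 spots were well above background. Without that array the log2 fold change was 0.13 (limma adjusted p = 0.552).

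**Figure D2:**
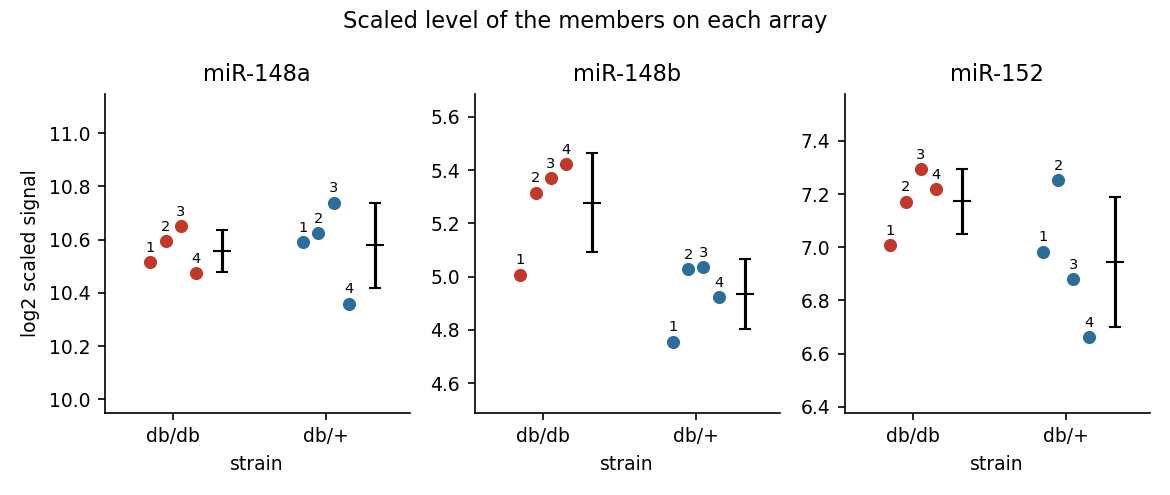
Log2 scaled signal of miR-148a, miR-148b and miR-152, one panel each with its own axis, for each of the 4 db/db and 4 db/+ arrays, with mean and SD. The strains overlap for all 3 members, and the db/db means are 10.56, 5.28 and 7.17 against 10.58, 4.94 and 6.94 in db/+.

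All 3 members entered the test, which took miRNAs detected throughout at least 1 strain; miR-148b did so through db/db alone, where it was detected on 4 of 4 arrays, against 3 of 4 in db/+. Of the 3 members, 0 passed limma's test, whereas 19 of the 127 miRNAs tested on these arrays did (15%), 12 higher in db/db (9.45%) and 7 lower (5.51%). Through db/db alone entered 38 of the 127 and through db/+ alone 0, so the rule for testing can favour higher values. Among the 89 miRNAs detected on all 8 arrays, 8 were higher in db/db (8.99%) and 6 lower (6.74%). The calls over the 127 numbered 6 higher and 8 lower under scaling to the 75th percentile, 11 and 11 under cyclic loess, and 6 and 6 under quantile normalization. Before adjustment 1 of the 3, miR-148b, had a p under 0.05, as had 33 of the 127. SAM, the permutation method named by the series text, was run at a false discovery rate under 5%. With its fudge factor, a constant added to each miRNA's spread, at the value of least variation, it called 18 of 127 miRNAs (14.2%) and no member. With that constant at the 5th percentile of the spread, a setting added after the first result had been seen, it called 33 of 127 (26%), miR-148b among them. The strains overlapped for all 3 members, whereas they did not for 29 of the 127 (22.8%). Of the members 2 had a log2 fold change above 0, as had 84 of the 127 (66.1%) and 57 of the 89 (64%), but under normexp only miR-148a did (0.16). The median over all 127 was 0.15, and relative to it miR-148a lay at -0.17, miR-148b at 0.19 and miR-152 at 0.078. Scaling to the 75th percentile moved that median to 0.024 and, by its construction, left these distances as they were. Relative to its own median, normexp gave 0.34, -0.21 and 0.15, raw median intensity 0.25, -0.058 and 0.13, and the authors' deposited scores -0.059, 0.67 and 0.032, for miR-148a, miR-148b and miR-152 in that order.

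**Figure D3:**
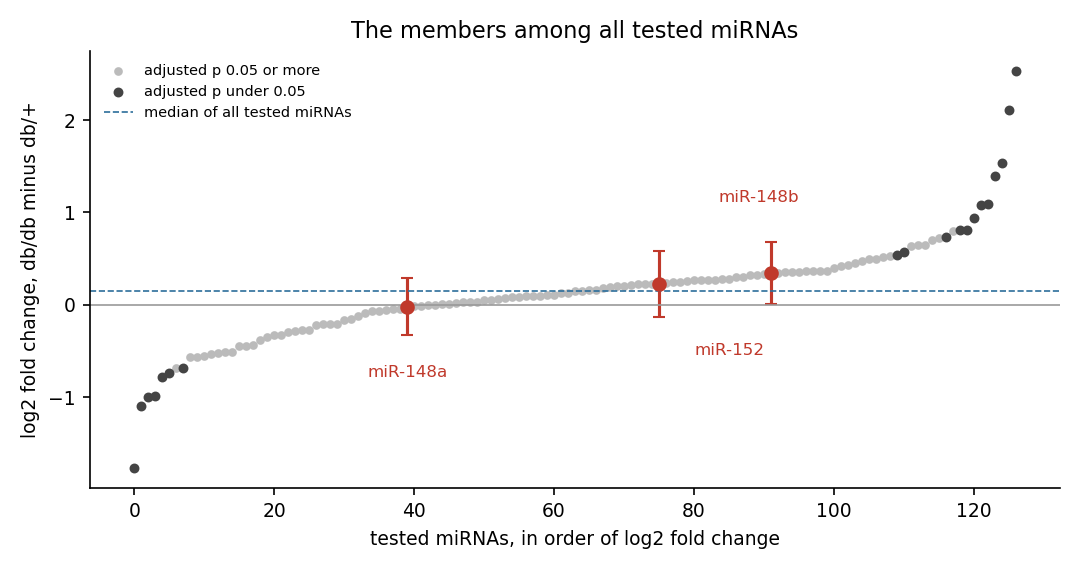
Log2 fold change (db/db minus db/+) of the 127 tested miRNAs, placed in order of that value. The 3 members are named and the 19 miRNAs past the limma threshold are marked. The members lie at -0.020, 0.34 and 0.23, near the median of 0.15.

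The members were also set against each other within each array, where the array's scaling cancels. This asks whether they moved unequally. The size of such a ratio is not a ratio of amounts, because probes differ in binding, so only its difference between strains was used. The pairs were compared by two-sided exact permutation tests, with Benjamini-Hochberg adjustment over the 3.

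The ratio of miR-148a over miR-148b was lower on most db/db arrays. On the log2 scale it was 5.51, 5.28, 5.28 and 5.05 in db/db replicates 1 to 4, against 5.84, 5.59, 5.70 and 5.44 in db/+. Only db/db replicate 1 reached into the db/+ range, above db/+ replicate 4. On that db/+ array miR-148b was not detected, so its ratio of 5.44 rests on a value near background. The means were 5.28 ± 0.19 in db/db and 5.64 ± 0.17 in db/+, a difference of -0.36 ± 0.13 (SE, n = 4 each, exact permutation p = 0.0571, adjusted p = 0.129).

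The ratio of miR-148a over miR-152 was 3.51, 3.42, 3.36 and 3.26 in db/db and 3.61, 3.37, 3.86 and 3.70 in db/+. Here db/+ replicate 2 lay among the db/db values and the other db/+ arrays lay above them. The difference was -0.25 ± 0.11 (SE, n = 4 each, exact permutation p = 0.0857, adjusted p = 0.129).

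The ratio of miR-148b over miR-152 was -2.0003, -1.85, -1.92 and -1.80 in db/db and -2.23, -2.22, -1.84 and -1.74 in db/+. The db/db values lay inside the db/+ range, and the difference was 0.11 ± 0.13 (SE, n = 4 each, exact permutation p = 0.4, adjusted p = 0.4). The highest db/+ value, -1.74, came from replicate 4, where miR-148b was not detected. None of the 3 differences passed the test on these values. With the authors' deposited scores the ratios of miR-148a over miR-148b and of miR-148b over miR-152 did, at -0.73 and 0.64 (exact permutation, adjusted p = 0.0429 each), whereas under normexp both turned sign, to 0.55 and -0.36.

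**Figure D4:**
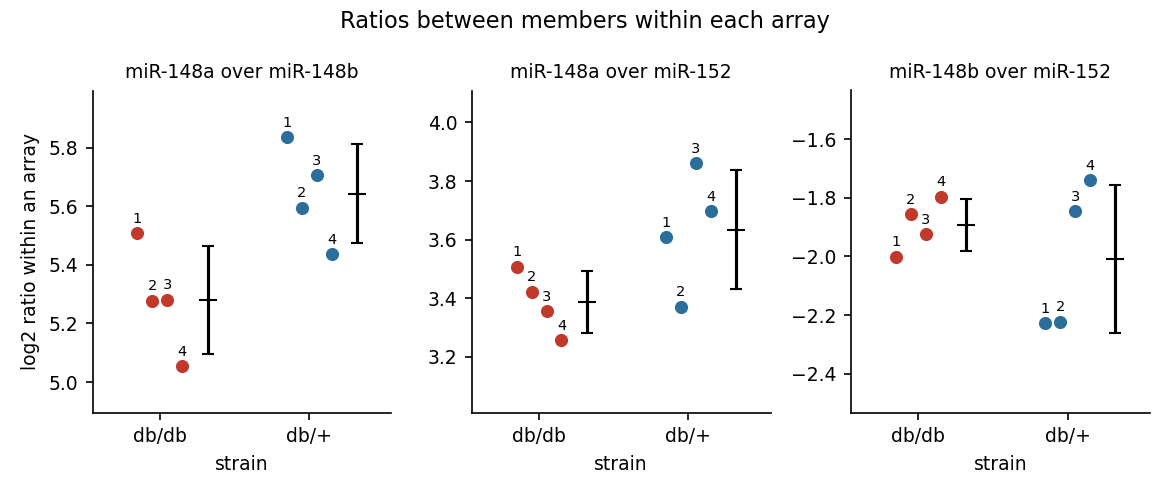
Within-array log2 ratios of miR-148a over miR-148b, miR-148a over miR-152 and miR-148b over miR-152 for the 4 db/db and 4 db/+ arrays, with mean and SD. The strains overlap in each panel; the differences in means are -0.36, -0.25 and 0.11.

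The authors' deposited scores, made per array for 139 miRNAs including all 3 members, show the same members as processed by the submitters. For miR-148b the authors' deposited table gave 1.40, 1.48, 1.46 and 1.43 in db/db replicates 1 to 4, against 1.32, 1.32, 1.42 and 0.975 in db/+. On this scale all db/db values except that of replicate 1 lay above every db/+ value. For miR-148a the authors' deposited table gave 2.44, 2.51, 2.47 and 2.38 in db/db and 2.54, 2.40, 2.58 and 2.23 in db/+, and for miR-152 it gave 1.65, 1.71, 1.69 and 1.64 in db/db and 1.71, 1.62, 1.69 and 1.52 in db/+. The scores are on a log scale with an unstated base, close to 20 when set against the scanner signals. Read with that base, the log2 fold change was 0.064 for miR-148a, 0.80 for miR-148b and 0.16 for miR-152. Without db/+ replicate 4 these were -0.24, 0.39 and -0.0075.

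The 2 probes of each member have a common end and differ by 1 base in length, so they are not independent measurements. Coordinates of the probed bases are those of the array files (mm9). For miR-148a the 19-base probe covers chr6:51219828-51219846 and the 20-base probe chr6:51219828-51219847. They gave log2 fold changes of -0.096 and 0.021 (exact permutation p = 0.457 and 0.857), opposite in sign and both small. For miR-152 the 16-base probe covers chr11:96711758-96711773 and the 17-base probe chr11:96711757-96711773, and these gave 0.23 and 0.24 (exact permutation p = 0.229 and 0.171).

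For miR-148b nearly all signal came from the longer probe. The 19-base probe, chr15:103115619-103115637, gave a log2 fold change of 0.32 (exact permutation p = 0.0571), with 10 of 10 spots well above background on 7 arrays and 0 on db/+ replicate 4. The 18-base probe, chr15:103115620-103115637, had 0 to 3 of 10 spots well above background and was at the floor, the lowest value allowed, on 3 arrays. Its log2 fold change of 0.22 therefore rests on signal near background. On the 7 arrays with the longer probe well above background, that probe carried 86.8% to 98.6% of the signal of miR-148b.

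Spread between the 10 spots of a probe was smallest for miR-148a, with a median coefficient of variation over arrays of 3.91% and 2.77% for its probes. It was 5.13% and 6.55% for the probes of miR-152 and 8.28% for the longer probe of miR-148b. On the dimmest array, db/+ replicate 4, the longer probe of miR-148b reached 50.2%.

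The other arm of the miR-148a hairpin, miR-148a* on the array and miR-148a-5p in RefSeq, is the 1 passenger strand of the family with spots here. Its sequence is shown since its seed, in capitals, is unrelated to that of the family.
miR-148a*: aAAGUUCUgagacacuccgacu
It was detected on 0 of 4 db/db arrays and on 1 of 4 db/+ arrays, the brightest. Of its 20 spots, 1 was well above background on each db/db array, against 5, 0, 2 and 0 on the db/+ arrays. After scaling it was at the floor on all 8 arrays, so it has no fold change and was not tested.

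The family's seed is offset by 1 base from that of miR-130 and miR-301, whose seed AGUGCAA starts with the last 6 bases of CAGUGCA, so targets can partly overlap. The stretch AGUGCA stood at bases 2 to 7 of 7 of the 1738 mature sequences (0.403%).
miR-130a: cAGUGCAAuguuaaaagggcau
miR-301a: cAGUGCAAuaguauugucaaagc
Of the 5 miRNAs of that group on the array, 2 were tested. miR-130a had a log2 fold change of -0.33 (limma adjusted p = 0.271) and miR-301a of -0.21 (limma adjusted p = 0.737). Neither passed limma's test or SAM, and neither had an unadjusted p under 0.05. Of all 127 tested, 15% passed limma and SAM called 14.2%.

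Further lists place the members among miRNAs of related roles. Of the 9 tested miRNAs tied to lipid and cholesterol handling in liver, 2 rose, miR-34a (2.54) and miR-378 (1.09), and 1 fell, miR-223 (-0.74, a miRNA of myeloid cells), where 9.45% of all tested miRNAs rose and 5.51% fell. The median log2 fold change of that list was 0.098, against 0.15 over all 127. Of the 7 tested miRNAs tied to DNA methyltransferase messenger RNAs, which here excludes the family itself, 0 passed limma, against 15% of all 127. Of these 7, 1 had an unadjusted p under 0.05, as had 33 of the 127. SAM called 0, against 14.2% of all tested, or 1 with its constant at the 5th percentile, against 26%. The 3 with the smallest p were the miR-29 members, known to repress the de novo methyltransferases, with log2 fold changes of -0.51 for miR-29c, -0.69 for miR-29b and -0.43 for miR-29a. The median of the list was -0.43, against 0.15 over all 127.

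Of the 9 tested miRNAs abundant in hepatocytes, 0 passed limma, 1 had an unadjusted p under 0.05 and 0 were called by SAM. Over all 127 tested, 15% passed limma, 33 had an unadjusted p under 0.05 and SAM called 14.2%. miR-101a had -0.55, miR-22 0.42 and miR-194 0.22, and the median was -0.0028. miR-148a, at -0.020, lay near that median.

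Markers of other liver cells were looked up by cell type. Among leukocyte miRNAs 2 of 3 tested fell, against 5.51% of all tested miRNAs. The log2 fold changes were -1.10 for miR-142-3p and -0.74 for miR-223, which fell, and -0.044 for miR-146a. The summed scaled signal of the 6 on the array was 237 to 320 in db/db, against 424 to 530 in db/+. That sum includes the 2 that fell. Among stellate and smooth muscle miRNAs 1 of 5 tested rose, miR-31, against 9.45% of all tested. The other 4, miR-214, miR-143, miR-199a-5p and miR-199b, had log2 fold changes of 0.64, 0.33, 0.084 and -0.047. Of these, miR-214, miR-143 and miR-199a-5p entered the test through db/db alone, with detection on 3 of 4 db/+ arrays. The summed signal of the list, 307 to 379 in db/db and 231 to 275 in db/+, includes miR-31. Among bile duct miRNAs 1 of 2 tested rose, miR-200b, against 9.45% of all tested. The summed signals of the list, 73.5 to 104 in db/db and 54.2 to 68.8 in db/+, include miR-200b. Both tested, miR-200a and miR-200b, had been detected on 4 of 4 db/db and 3 of 4 db/+ arrays, so they entered the test through db/db alone. The summed hepatocyte markers ran from 51075 to 55164 in db/db and from 29923 to 72318 in db/+, and 0 of 3 passed limma, none with an unadjusted p under 0.05 or a SAM call. Of the endothelial miRNAs 0 of 2 tested passed limma and of the erythroid ones 0 of 1, also with no unadjusted p under 0.05 and no SAM call. The share of all 127 tested that passed limma was 15%. The part of these differences in the members' values was not tested.

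The miRNAs whose profile over the 8 arrays was closest to a member's were found by the root mean square distance between log2 levels, each centred on its own mean, among 88 others detected on all 8 arrays. For miR-148a these were miR-26a (0.121), miR-98 (0.126) and miR-185 (0.136). For miR-152 they were let-7a (0.147), let-7f (0.149) and miR-98 (0.154). miR-148a and miR-152 were 0.188 apart, and each was 10th in the other's order, so 9 miRNAs without the family's seed lay closer. All miRNAs of an array share its scaling and brightness. miR-148b was not detected on all 8 arrays and was not ranked.

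**Figure D5:**
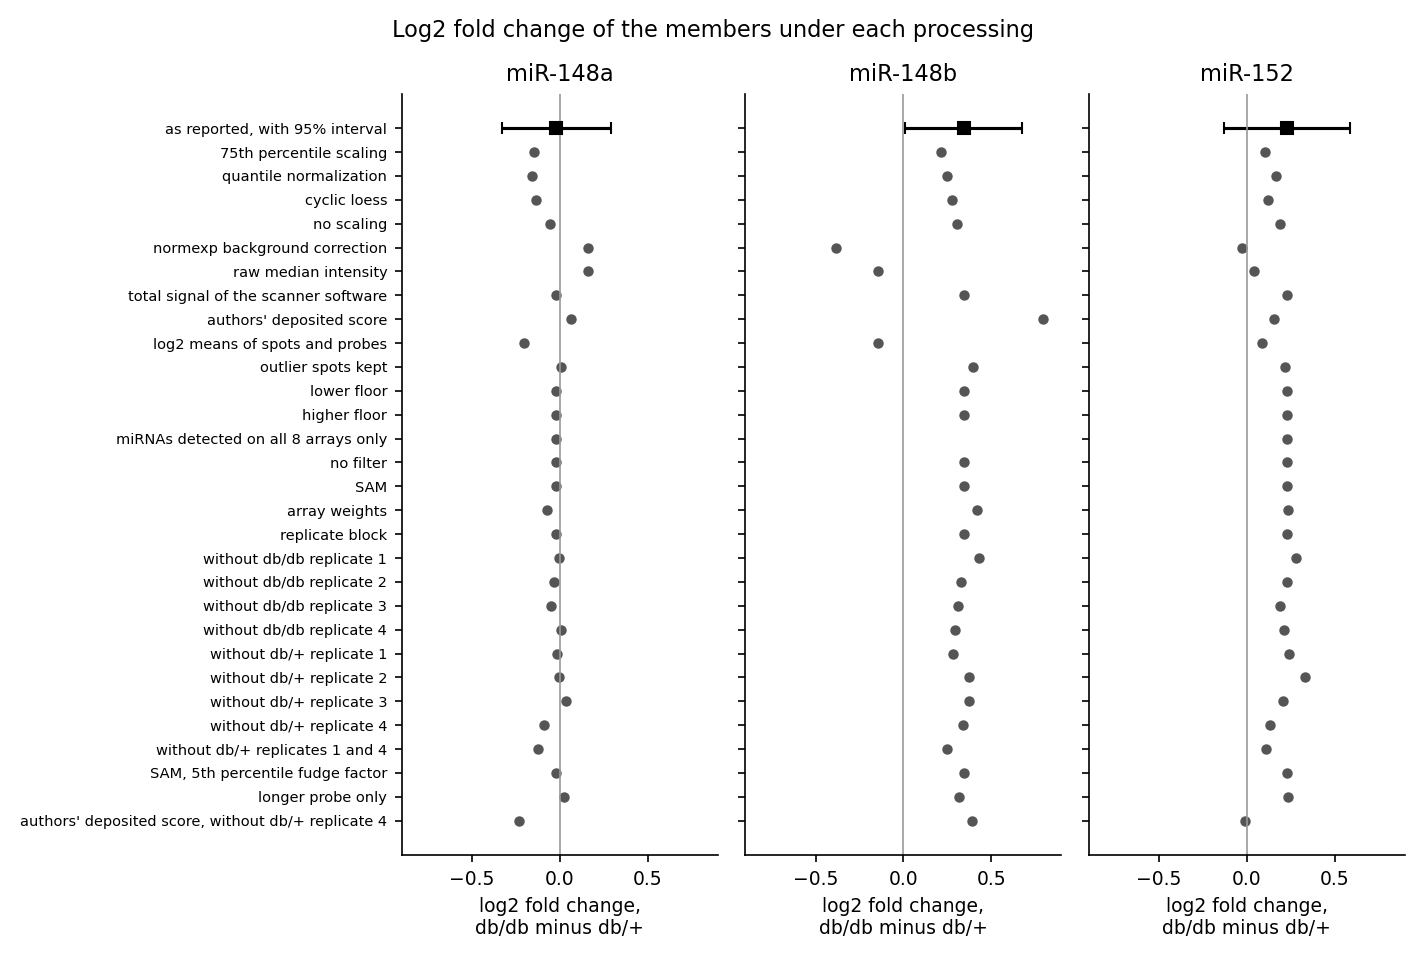
Log2 fold change (db/db minus db/+) of miR-148a, miR-148b and miR-152 under each processing setting, with the 95% interval on the value as reported. miR-148a stays between -0.24 and 0.16 and changes sign, miR-148b runs from -0.38 to 0.80, and miR-152 from -0.025 to 0.33.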

How the data were processed

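Total RNA of liver (100 ng) was tagged with Cy3 by ligation, per the labels' protocols, and read on 1-colour Agilent arrays of mouse miRNA probes. Spot intensity was deposited as scanner files which, per the file headers, Agilent Feature Extraction wrote in version 9.5.3.1, while the series text names 9.3.5. Processed intensity is background-subtracted, not scaled between arrays, and can lie below 0. The deposited detection, background and outlier flags are of another kind, 0 or 1, per the file headers. The authors deposited a score for 139 miRNAs, global median normalized and log transformed per the series text. A further deposited table gave raw median spot intensity for every array.

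Outlier spots and control spots were left out, and spots, then probes, were averaged. Each array was scaled by the median signal of the 89 miRNAs that all 8 arrays detected, with the geometric mean of these medians as the common target. Signals below 4.59, the median over arrays of the lowest scaled detected signal, were set to that floor, and log2 values were used. Testing required detection throughout the 4 arrays of db/db or of db/+. The strains were compared with lmFit and eBayes of limma 3.58.1 (R 4.3.3), two-sided and without covariates, with Benjamini-Hochberg adjustment over 127 miRNAs and a threshold of 0.05. The procedure was tested on simulated data. Tables were handled by data.table (version 1.17.8) and figures drawn with matplotlib 3.10.9.

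Members and lists were chosen with earlier results of these data known. Named were the members, their probes and other arm, up to 3 tested miRNAs of each list by smallest p, and the 3 closest profiles. Replicates were treated as separate animals, which the sample titles do not state, and their number limits the precision. Arrays were not treated as paired by replicate number. The deviations of same-numbered arrays correlated at -0.13, -0.37, 0.036 and 0.31. These values cannot settle a pairing, since differently numbered arrays were not compared. Quantile normalization and cyclic loess were run over the 127 tested miRNAs after a first version over all miRNAs had been seen.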

Additional observations from a re-analysis of the deposited data

How the results depend on the processing

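The alternatives were other scalings, backgrounds, signal columns, floors, filters, tests and subsets of arrays. miR-148b kept a log2 fold change above 0 in 25 of 28 alternatives and miR-152 in 27 of 29, and miR-148a had one above 0 in 7 of 29. These counts include settings that left the value as reported: the lower and higher floors, no filter, either SAM setting and the replicate block. The total signal of the scanner software also gave -0.020, 0.34 and 0.23 for miR-148a, miR-148b and miR-152, as reported. The filter on miRNAs detected on all 8 arrays likewise left miR-148a and miR-152 as reported. The sign under such settings is not a separate check. Under normexp, with its offset of 50, the log2 fold changes of miR-148a, miR-148b and miR-152 were 0.16, -0.38 and -0.025. The differences of the ratios, in the order given above, were then 0.55, 0.19 and -0.36. With raw median intensity they were 0.16 for miR-148a and -0.14 for miR-148b, with ratios of 0.31, 0.12 and -0.18. Log2 means of spots and probes gave -0.14 for miR-148b and -0.23 for miR-148b over miR-152. miR-148a was 0.064 with the authors' deposited score, 0.0079 with outlier spots kept and 0.021 with the longer probe only. With the authors' deposited score the ratios of miR-148a over miR-148b and miR-148b over miR-152 passed at -0.73 and 0.64. Without db/+ replicate 4 these were -0.62 and 0.40, still past the threshold, and miR-152 was -0.0075. The cause of these changes was not tested. miR-148b passed with array weights (0.42) and with SAM's fudge factor at the 5th percentile of the spread (0.34 as reported), but not with SAM as first run.

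The number of miRNAs past the threshold was 0 without scaling (limma, 1 with an unadjusted p under 0.05), 2 with normexp, 1 with raw median intensity, 6 with the score, 12 with quantile normalization, 12 with a higher floor, 4 with no filter, 33 with SAM at the 5th percentile and 42 with array weights, against 19 as reported. Leaving out each array in turn gave 10 to 21, and log2 fold changes of -0.093 to 0.034 for miR-148a, 0.28 to 0.43 for miR-148b (limma adjusted p from 0.0991 to 0.350) and 0.13 to 0.33 for miR-152. The ratio differences then ran from -0.44 to -0.29, -0.34 to -0.17 and 0.042 to 0.20. miR-148a reached 0.0080 without db/db replicate 4 and 0.034 without db/+ replicate 3. With the replicate block 17 miRNAs passed, miR-148b kept 0.34 (limma adjusted p = 0.187), and no call of a member changed. The filter on miRNAs detected on all 8 arrays leaves out miR-148b. The score without db/+ replicate 4, the longer probe only and SAM's fudge factor at the 5th percentile, the setting that called miR-148b, were chosen after seeing the data. Without db/+ replicate 4, where it was not detected, miR-148b had 0.34.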
